A study of Mus musculus with 12 samples.

Results

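In HSC libraries of 12 mice, 191 of 49585 genes had a count in exactly 2 samples and at least 300 counts over all samples. These 191 genes are described here. They were chosen by their read counts, without regard to genotype, and Blk, Cd4, Rgs9 and symbols that begin with Hist or Abc were left out, which removed 5 genes that otherwise met the rule (Abcb9, Abcc3, Rgs9, Blk and Abca17). Each sample was a pool of HSCs from 1 mouse, taken as 8 wells with 10 sorted cells each. There were 6 WT mice and 6 Pon2-/- mice of the C57BL/6J background, aged 10 to 14 weeks, and the sorted cells were negative for lineage markers and CD135 and positive for Sca1, ckit and CD150, a gate that holds LT-HSCs and MPP2 cells. The Pon2-/- mice carry a gene trap with a β-geo cassette in an intron of Pon2, which lowers Pon2 protein without removing all of it. Counts are reads per gene without normalization.

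Smart-seq2 turns the RNA of few cells into amplified full-length cDNA. When a transcript is present in few cells of a small pool, or as few molecules, it can be captured in some pools and missed in others, and amplification can give many reads from few molecules. Immunoglobulin genes are a special case, because each B lineage cell joins its own V, D and J segments, so that the segments differ from one cell or clone to the next.

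The totals were 12967791 to 24228280 counts per sample, and 13941 to 15656 genes per sample had a count. Where a sample lists 0, up to 3 counts remain possible, or 0.124 to 0.231 counts per 1000000 (CPM), which covers counting error only because amplified reads are not independent molecules. All 20 genes of a stem cell list, among them Kit, Procr, Mecom and Hlf, had counts in all 12 samples, and their summed level was 3737 to 4579 CPM. Pon2 was at 56.3 to 200.04 CPM in WT (mean 112 ± 48.6, SD, n = 6) and at 1.14 to 32.8 CPM in Pon2-/- HSCs (25.4 ± 12.01, n = 6). The genotypes did not overlap for Pon2, and the mean log2 CPM was lower by 2.54 in Pon2-/- HSCs (difference -2.54, two-sided exact permutation test, p = 0.00216, the smallest that 6 against 6 samples allow). Pon2-/- 5 stood apart with 1.14 CPM, and without it the difference was -1.78 (exact permutation test, p = 0.00433). Pon2-/- 3 stood apart by its immunoglobulin counts, which are given with the members they touch.

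Of the 191 members, 48 had both samples in WT, 30 had both in Pon2-/- and 113 had one sample of each genotype. Both samples thus had the same genotype for 78 members, or 40.8%, where 30 of the 66 possible pairs of samples, or 45.5%, have one genotype. Genes of the same libraries are not independent, so the share is a description only. No direction is read from the share, and no test was run. The share was 42.9% for the 133 protein-coding members (57 genes) and 42.6% for the 101 members with at least 100 counts in both samples (43 genes). It was 48.1% for the 27 members with 1 to 3 counts in the lesser sample (13 genes). Genes in exactly 2 samples with at least 10 counts but fewer than 300, which the rule did not take, gave 44.6% (531 of 1191).

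Genes with the same minimum of counts but more samples are given for comparison, and no direction is read from their shares either. Of 296 genes counted in exactly 3 samples, 60 or 20.3% had all of them in one genotype, against 18.2% of all sets of 3 samples. Of 384 genes in exactly 4 samples the figures were 27 or 7.03%, against 6.06%. Among members with one sample of each genotype, 15 of 113 (13.3%) joined mice of the same replicate number, where 6 of 36 such pairs (16.7%) do.

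Every sample held members. In WT 1 to WT 6 the number was 35, 39, 47, 32, 35 and 21, and in Pon2-/- 1 to Pon2-/- 6 it was 34, 39, 18, 29, 29 and 24. WT samples filled 209 of the 382 places (54.7%). WT 3 held the most members and also had the most genes with a count (15656) and the highest total. Pon2-/- 3 held the fewest members and had the fewest genes with a count (13941). Not all samples followed this order, as WT 4 had the lowest total but 15435 genes with a count and 32 members. The part of depth and of detection in these numbers was not tested.

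**Figure D1:**
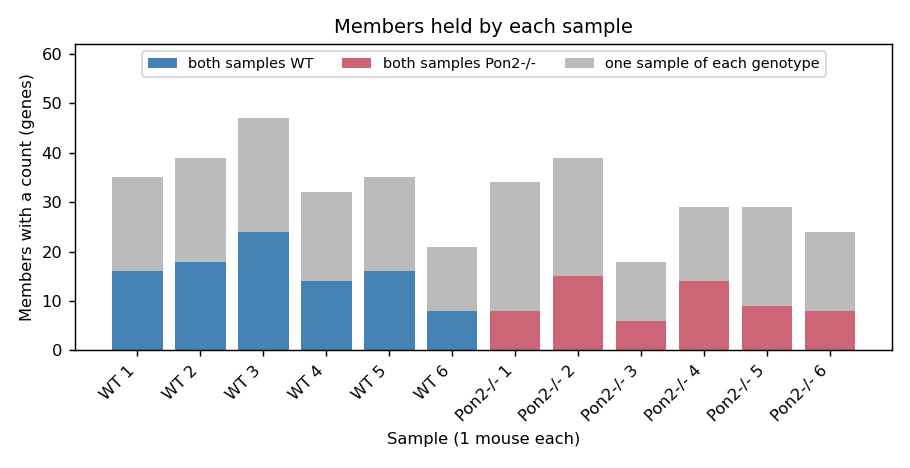
Number of members with a count in each of the 12 samples, stacked by whether both samples of the member are WT, both are Pon2-/- or one is of each genotype. The bars run from 18 members in Pon2-/- 3 to 47 in WT 3.

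The members were spread over many pairs. A pair of samples shared 0 to 7 members, with a median of 2.5. WT 3 and WT 4 shared 7, the most of any pair, and 10 of the 66 pairs shared 5 or more. No member was shared by 5 pairs, among them WT 1 with WT 4 and Pon2-/- 5 with Pon2-/- 6.

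**Figure D2:**
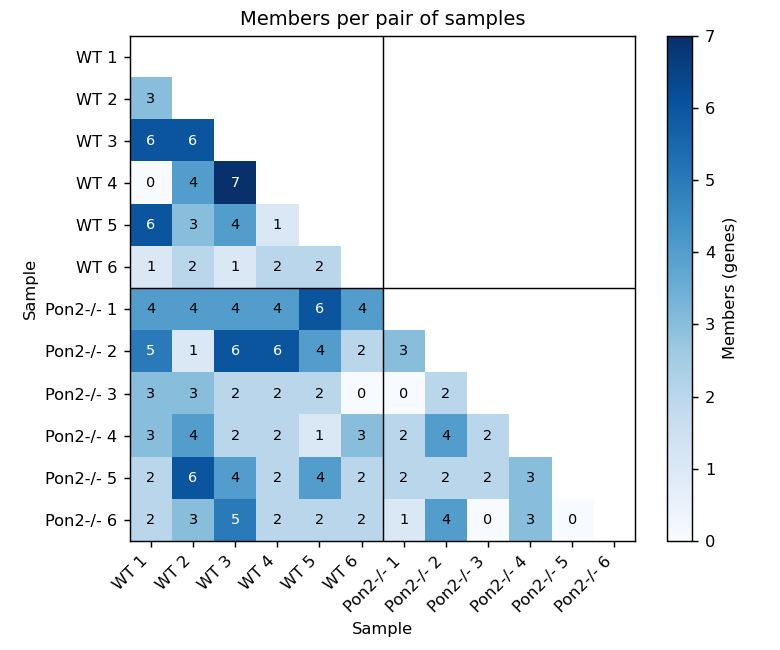
Number of members for each of the 66 pairs of samples, with colour and digit giving the number and black lines dividing WT from Pon2-/-. Values run from 0 to 7, and pairs of both genotypes (lower left block) hold 113 members.

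Most members had few counts. The total over both samples had a median of 435 counts, 125 members had fewer than 500 counts and 9 had 1000 or more. The higher sample had a median of 332 counts, or 17.8 CPM, and the lesser sample 109 counts. In 69 members the samples were within 2-fold of each other, in 152 the lesser sample had at least 10 counts, and in 19 it had exactly 1. Near the minimum of 300 counts, Abat (GABA transaminase) had 177 counts in WT 1 and 123 in Pon2-/- 3, Pcdhga7 (a clustered protocadherin) 283 in WT 6 and 17 in Pon2-/- 6, and Wdr46-ps 139 in WT 4 and 162 in Pon2-/- 4. Just outside, Apold1 (298 and 1), Gm45235 (283 and 16) and B3gat2 (210 and 86) fell short of the minimum.

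**Figure D3:**
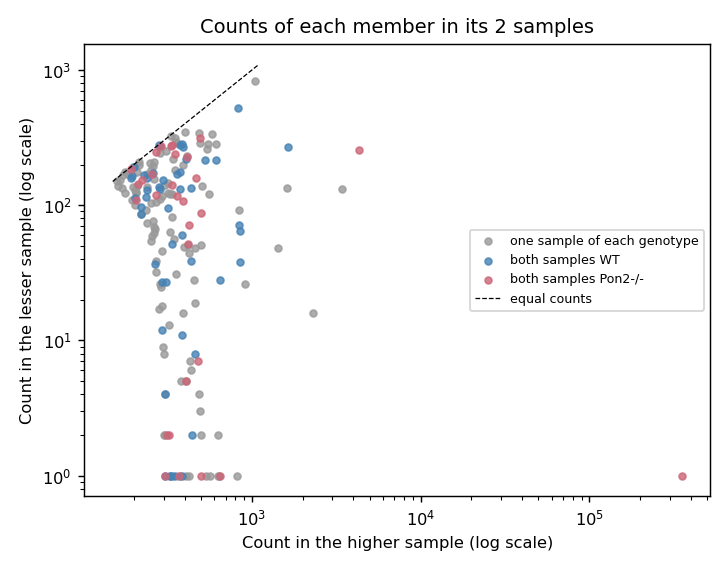
Count in the higher against the count in the lesser of the 2 samples of each member, on log axes, coloured by the genotypes of the pair. The counts of the lesser sample run from 1 to 838, and Igkv14-126 lies alone at 354201 counts in its higher sample.

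The member with the most counts was Igkv14-126, a V segment of the immunoglobulin kappa chain, with 354201 counts in Pon2-/- 3 and 1 in Pon2-/- 2. Its level in Pon2-/- 3 was 19143 CPM. The sequences of the V and J segments with the most counts in Pon2-/- 3, 2 of each kind, are shown because they identify which V and J genes these reads were assigned to. They are the reference segments of GENCODE M21 (GRCm38), not the sequence of the reads. For the V segments the last 300 coding bases are given, with the codon of the conserved cysteine at the end of the V region in capitals; the J segments are whole. Igkv14-126 lies at chr6:67896172-67896642 (+), Igkj4 at chr6:70723548-70723585 (+), Ighv11-2 at chr12:114048241-114048812 (-) and Ighj1 at chr12:113429781-113429833 (-).
Igkv14-126: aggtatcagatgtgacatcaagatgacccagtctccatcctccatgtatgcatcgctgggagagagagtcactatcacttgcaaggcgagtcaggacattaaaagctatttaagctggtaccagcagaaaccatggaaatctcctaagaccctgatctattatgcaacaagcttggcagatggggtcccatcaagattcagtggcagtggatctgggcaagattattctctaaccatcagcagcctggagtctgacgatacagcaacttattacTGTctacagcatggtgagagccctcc
Igkj4: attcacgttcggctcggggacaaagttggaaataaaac
Ighv11-2: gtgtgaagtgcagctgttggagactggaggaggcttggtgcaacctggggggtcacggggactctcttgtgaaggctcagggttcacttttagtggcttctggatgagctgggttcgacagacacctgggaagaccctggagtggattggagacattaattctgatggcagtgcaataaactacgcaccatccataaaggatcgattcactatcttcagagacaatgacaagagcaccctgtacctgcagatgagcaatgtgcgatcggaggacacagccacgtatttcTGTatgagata
Ighj1: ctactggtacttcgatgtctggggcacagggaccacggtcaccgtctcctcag

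Immunoglobulin segments made up 7 of the 191 members. Ighj1, a J segment of the heavy chain, had 2301 counts in Pon2-/- 3 and 16 in WT 3. Igkj4, a J segment of the kappa chain, had 632 in Pon2-/- 3 and 2 in WT 5. Iglv1, a V segment of the lambda chain, had 3406 in Pon2-/- 3 and 133 in WT 4. These 3 segments and Igkv14-126 thus had nearly all of their counts in one sample. The other V segments were high elsewhere. Igkv8-24 had 1612 counts in Pon2-/- 1 and 134 in WT 4, and Ighv1-75, of the heavy chain, had 500 in Pon2-/- 1 and 51 in WT 3. Igkv17-121 had 638 in WT 5 and 1 in Pon2-/- 5.

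Of all V segments with at least 300 counts, 11 of 11 were counted in 3 or fewer samples, and 5 of them are members. The constant segments were counted more widely, and none of 6 is a member. Ighm, which encodes the constant part of IgM, had counts in 11 samples, and Igkc, the constant part of the kappa chain, in 6. Reads of close copies are uncertain. Igkv14-126 is 94.2% identical to Igkv14-111 over the aligned part, Iglv1 is 97.0% identical to Iglv2, and Igkv17-121 is 97.5% identical to Igkv17-127.

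Pon2-/- 3 stood apart through these genes. Member counts took 1.97% of its library (364207 counts), against 0.0296% to 0.0660% in the other 11 samples, and without Igkv14-126 they came to 10006. In the same sample Igkc had 486251 counts and Ighm 181116. Ighv11-2 (28750 counts), Jchain, which joins IgM into polymers (6276), and Tnfrsf17, a receptor of plasma cells (24), had counts in no other sample. Mzb1, a chaperone of IgM secretion, had 1137 counts there and 171 to 844 in the other 4 samples that had any. The list of 18 plasma cell genes, which was chosen after these values were seen, summed to 36886 CPM in Pon2-/- 3 and to 294 to 1014 CPM in the other samples. Igkc and Ighm made up 36068 CPM of this sum, and the rest of the list came to 819 CPM in Pon2-/- 3 and to 153 to 699 CPM in the other samples. Of this list, Igha, Ighg1, Ighg2b, Ighg2c and Ighg3, which encode the constant parts of switched antibodies, had no count in any sample. As background, Ighv11-2 with Igkv14-126 is a known antibody pairing of B-1 cells that bind phosphatidylcholine. In a pool, fewer cells of a type and less RNA per cell cannot be told apart. Without Pon2-/- 3, 216 genes had counts in exactly 2 of 11 samples, and 43.1% of them had both samples in one genotype.

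**Figure D4:**
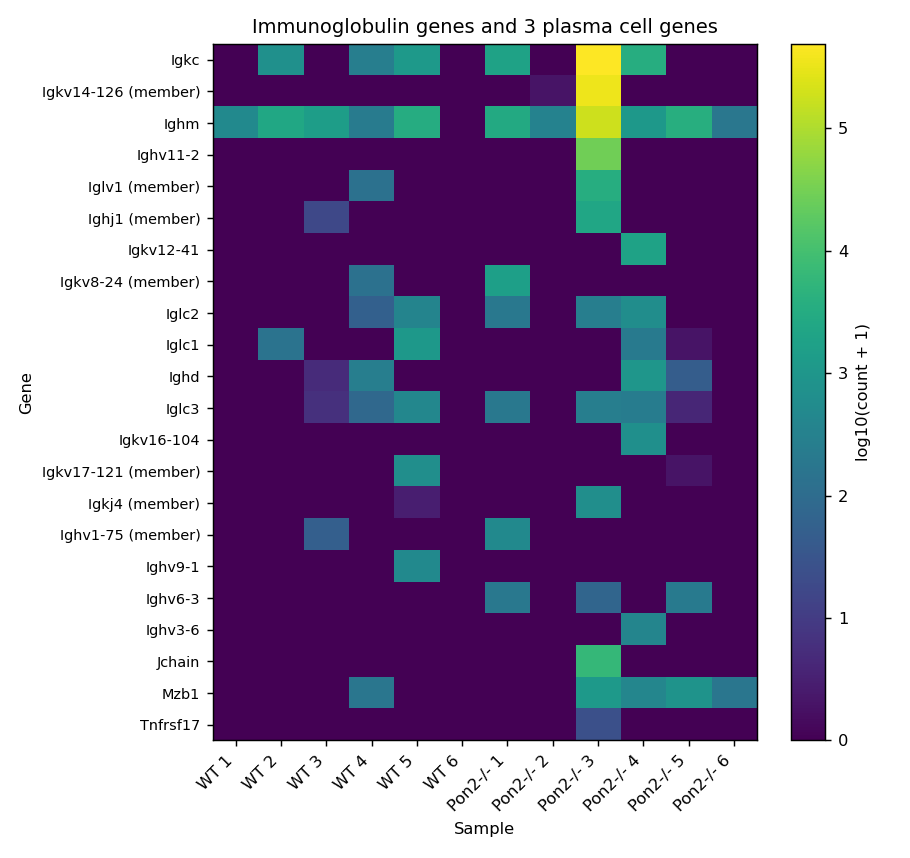
Counts, as log10(count + 1), of the 19 immunoglobulin segments with at least 300 counts and of Jchain, Mzb1 and Tnfrsf17 in the 12 samples, with members marked. Pon2-/- 3 is highest for Igkc, Igkv14-126, Ighm, Ighv11-2, Iglv1, Ighj1, Igkj4 and Jchain.

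On 11 lists of lineage genes, with 218 genes in all, 6 members were found (3.14% of the members), against 110 of the 13425 genes with at least 300 counts (0.819%) and 45 of the 8348 genes of that minimum counted in all 12 samples (0.539%). They were Igll1 and Spib of the B lineage list and Cd2 of the T and NK list. The others were Gp1bb of megakaryocytes and platelets, Ctsg of granulocytes, and Siglecf of the list of mast cells, basophils and eosinophils. The lists of the erythroid lineage, of monocytes, macrophages and dendritic cells, of stem cells, of the stroma and endothelium of the niche, of the germline and of neural cells held no member. Of the 191 members, 178 (93.2%) were neither on one of these lists nor an immunoglobulin segment.

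Igll1 encodes the λ5 protein of the surrogate light chain of pre-B cells. It had 4311 counts in Pon2-/- 5 and 256 in Pon2-/- 2. The summed B lineage list, which includes Igll1, was highest in Pon2-/- 5, at 968 CPM where the other samples had 81.2 to 644. Igll1 itself gave 201 CPM of this sum, so the sum is not separate from the Igll1 value. Pon2-/- 5 had the only counts of Vpreb2 (321) and Rag2 (170). Spib, a transcription factor of B cells and plasmacytoid dendritic cells, had 241 counts in WT 5 and 74 in Pon2-/- 1, and neither sample overlapped with those of Igll1.

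Ctsg encodes cathepsin G, a protease of neutrophil granules. It had 1645 counts in WT 1 and 269 in WT 3. The granulocyte list as a whole was low in WT 1 (621 CPM) and at 9030 CPM in WT 3. It was highest in Pon2-/- 1, at 17640 CPM, where Ctsg had no count. The other primary granule genes of the list differed among themselves. Mpo had its highest count in WT 1 (2291), Elane had counts in WT 5 alone (139), and Prtn3 was at 235 to 380.1 CPM in all samples, with 330 CPM in WT 1. Ltf, Ngp and Camp of the secondary granules had no count in WT 1.

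Cd2, an adhesion receptor on the T and NK list, had 260 counts in WT 5 and 77 in Pon2-/- 4. Of the 22 genes of this list, 8 had no count in any sample, Cd3e and Cd8a among them, and 3 had counts in all 12. The cell type behind the Cd2 counts was not tested. Gp1bb, a subunit of the platelet receptor for von Willebrand factor, had 285 in WT 3 and 132 in WT 1. Its sequence matched the overlapping gene Sept5 over 91.2% of its length (100% identity), and Sept5 was also counted in 2 samples. Reads of the shared part cannot be divided between these genes. What this overlap does to the counts of Gp1bb, zeros included, was not tested. Siglecf, a lectin of eosinophils, had 328 counts in WT 5 and 1 in WT 1.

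Among protein-coding members outside these lists, Slc19a2, a thiamine transporter, had the most counts in its lesser sample, with 1043 in WT 3 and 838 in Pon2-/- 2. Polm, a DNA polymerase of end joining, had 827 counts in WT 2 and 522 in WT 6. Both genes were at a like level in their samples, at 43.05 and 36.2 CPM for Slc19a2 and 43.2 and 32.5 CPM for Polm, and neither had a read in the other 10.

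Receptors formed the next group. Agtr1a, a receptor of angiotensin II, had 917 counts in WT 1 and 26 in Pon2-/- 6. Il20ra, a subunit of the IL-20 receptor, had 578 in WT 2 and 338 in Pon2-/- 4. Gpr84, a receptor for fatty acids on myeloid cells, had 611 in WT 2 and 218 in WT 6. Adgrg2, an adhesion receptor known from the epididymis, had 818 in Pon2-/- 6 and 1 in WT 3. Olfr632, an olfactory receptor, had 851 in WT 3 and 38 in WT 5. These genes came from 5 different pairs of samples.

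Proteases and their inhibitors were also present. Mmp25, a membrane-bound metalloproteinase of neutrophils, had 844 counts in WT 2 and 72 in WT 5. Adam19, a metalloproteinase, had 491 in WT 2 and 290 in Pon2-/- 1. Spint1, an inhibitor of serine proteases, had 529 in WT 1 and 217 in WT 3. Stfa2l1, a stefin, had 495 in Pon2-/- 2 and 317 in Pon2-/- 4, and it is 96.7% identical to Stfa2, so that its counts are uncertain.

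Metabolic and other genes completed the most abundant members. Stbd1, a glycogen-binding protein, had 401 counts in WT 2 and 349 in Pon2-/- 4, and Nhlrc1, a ubiquitin ligase of glycogen metabolism, had 649 in WT 3 and 28 in WT 4. Slc2a2, a glucose transporter, had 362 in WT 4 and 289 in Pon2-/- 1. B3galnt1, a glycosyltransferase, had 386 in WT 2 and 284 in WT 4. Mgarp, a mitochondrial protein, had 1422 in WT 2 and 48 in Pon2-/- 5. Ebf4, a transcription factor, had 556 in WT 2 and 122 in Pon2-/- 6. Ifi209, of the interferon-inducible p200 family, had 850 in WT 2 and 65 in WT 4, and it is 96.9% identical to Ifi214. Ly6k, Fam217a and Magee2 had 841, 547 and 356 counts in their higher samples (Pon2-/- 3, WT 1 and WT 1) and 92, 282 and 295 in their lesser samples (WT 2, Pon2-/- 4 and Pon2-/- 6).

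The types of the members were set beside those of all genes with at least 300 counts. Protein-coding genes made up 133 of 191 members (69.6%), against 87.5% of all genes with that minimum and 94.0% of those counted in all 12 samples. Transcripts that await experimental support (the TEC class of the annotation) made up 19 members (9.95%, against 2.89%), and 10 members were lincRNAs, 7 antisense and 5 sense intronic transcripts. Of the 189 members with a position, 94 (49.7%) overlapped another gene, against 54.0% of all genes with at least 300 counts, and 34 (18.0%) lay inside one, against 8.30%. The outer gene had counts in all 12 samples for 24 of the 34. Examples are Gm37521 inside Agap1, Gm42471 inside Cit and Gm43768 inside Snx27. Libraries of this kind carry no strand, so reads of such a member cannot be told from reads of the outer gene. The exons of protein-coding members had a median length of 3239 bases, against 4477 for all protein-coding genes with at least 300 counts. Close copies were found for 17 members. For Gp1bb, Podxl2, Pcdhga7, Pcdhga8 and Pcdhga9 the closest match was a gene that overlaps the member, not a copy elsewhere. Copies were not searched for genes other than the members. No pair of members within 10 kb of each other shared both samples.

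A last question was how tests of genotype treat such genes. In edgeR's quasi-likelihood fit over 13425 genes, 10 genes (0.0745%) were called (adjusted p below 0.05, log2 fold change beyond 1 in either direction), and 0 of the 191 members were called (smallest adjusted p 0.620). The fit with limma voom also called 0 members. At an unadjusted p below 0.05 there were 96 members, of which 78 had both samples in one genotype, against 5.56% of all genes tested. This count follows from the pattern that chose the members, and nothing is read from it. For a gene counted in 2 samples of one genotype the exact permutation test over samples gives p = 0.455 at best.

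DESeq2 called far more of the members. With default settings it called 239 of 12900 genes (1.85%), of which 54 were members, 34 with both samples in WT and 20 with both in Pon2-/-. Those were all the members that received an adjusted p, and 137 had none. Without Cook's cutoff it called 357 of 13425 genes (2.66%) and 80 members, which were all 78 members with both samples in one genotype, together with Adgrg2 and Igkv17-121. Members were 22.6% of the default calls and 22.4% of the calls without the cutoff. The smallest adjusted p values of members without the cutoff were 2.85e-20 for Igkv14-126, 1.08e-17 for Ctsg and 1.82e-17 for Polm (DESeq2, Benjamini-Hochberg). For Igkv14-126, whose counts lie in one mouse but for 1 read, edgeR gave an adjusted p of 0.620. Igll1, Adgrg2, Igkv17-121, Ctsg and Polm had the smallest unadjusted p in edgeR, each with an adjusted p of 0.620. Mmp25 was also among the 5 smallest in DESeq2 without the cutoff (adjusted p 6.61e-15).

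The share of genes called by DESeq2 was higher for genes counted in few samples. Without Cook's cutoff all 62 genes of 1 sample were called, and the share was 42.9% for the 196 genes of 2 samples, 19.2% for 3 and 10.1% for 4, and 0.419% for the 8348 genes of all 12. With default settings, which gave no adjusted p to the genes of 1 sample, it was 29.1% for 2 samples and 0.371% for all 12. In edgeR it was 0 for genes of 1 to 5 samples and 0.0479% for genes of all 12.

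**Figure D5:**
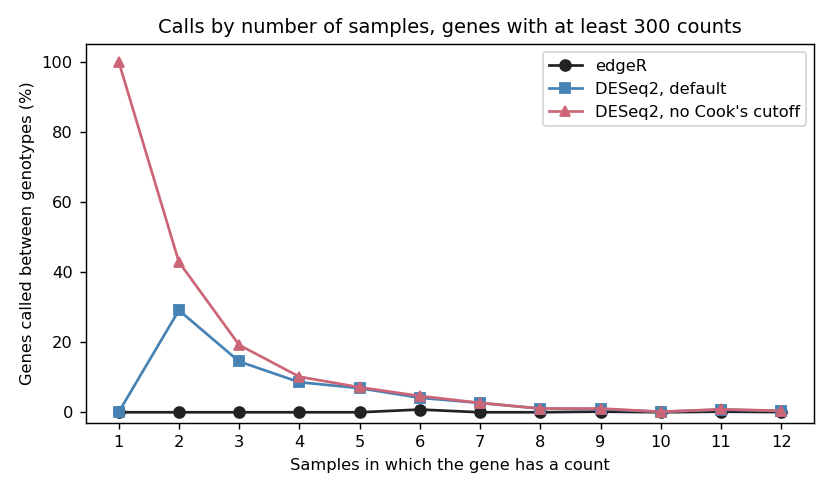
Percent of genes called between genotypes against the number of samples in which the gene has a count, for genes with at least 300 counts, in edgeR and in DESeq2 with and without Cook's cutoff. For 2 samples the points lie at 0, 29.1% and 42.9%, and for 12 samples all are below 1%.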

How the data were processed

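The authors prepared Smart-seq2 libraries, trimmed reads with Trimmomatic 0.36, mapped them with STAR 2.5.3a to GRCm38.p5 and counted reads per gene of GENCODE M12. The deposited values are whole-number counts per gene and sample, without normalization or filter, and the single count column was taken as the unstranded one. Names, positions and types came from GENCODE M21, which names 49326 of the 49585 genes.

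The members and lists were chosen with earlier results of these data known, and the plasma cell list after values were seen. Members named in the text were the 20 protein-coding members with the most counts (no Gm or Rik symbols), the 10 with the highest count in the lesser sample, those on a lineage list, the 3 on each side of the minimum of 300 counts, the 5 with the smallest adjusted p in edgeR and in DESeq2 without Cook's cutoff, and Pon2. The immunoglobulin segments and the genes of Pon2-/- 3 were named after their values were seen. So were the genes set beside Igll1, Ctsg and Cd2, and those given as examples of position.

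Genotypes were compared in R 4.3.3 with edgeR 4.0.16 (TMM, quasi-likelihood, genotype as the term, genes with at least 300 counts, which keeps every member in the fit). Calls needed a Benjamini-Hochberg adjusted p below 0.05 and a log2 fold change beyond 1 in either direction. DESeq2 1.42.0 and limma 3.58.1 were alternatives, with other filters, scalings, a replicate block and each sample left out. Log2 CPM of Pon2 used a prior count of 2. CPM of members and lists are counts per 1000000 of the sample total. Copies were found with minimap2 2.31-r1302 (90% identity over 50% of the length). A comparison of promoter sequence was void, because 106 of the 133 protein-coding members (79.7%) had an entry in the promoter table, where 80% were needed. The procedure was tested on simulated data. These were drawn around the mean of each gene, with the spread between samples capped, and were not built to hold genes counted in only 2 samples.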

Additional observations from a re-analysis of the deposited data

Results flagged for a closer look

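In groups of 6 samples, 38 sets of values were examined for a sample far from the others, and 4 were found. Chance gives about 1 in 20 for sets chosen beforehand. The member counts were used to choose the members, and the sets share genes and samples. The counts on members were 364207 in Pon2-/- 3 and 5955 to 11444 in the other Pon2-/- samples. The summed plasma cell list was at 36886 CPM in Pon2-/- 3 and 294 to 782 CPM in the other Pon2-/- samples. Igkc and Ighm made up 36068 CPM of it, the rest of the list came to 819 CPM, and the list was chosen after these values were seen. The summed granulocyte list was at 17640 CPM in Pon2-/- 1 and 356 to 4157 CPM in the others. Pon2 was at 1.14 CPM in Pon2-/- 5 and 28.1 to 32.8 CPM in the others. The cause of these values was not tested.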

How the results depend on the processing

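The share of members with both samples in one genotype (40.8%) was 40.1% to 44.8% under 8 other definitions and 39.4% to 46.2% with each sample left out, while genes of exactly 3 samples gave 20.3%, where fewer sets of samples have one genotype. The number of members (191) depended on the definition. It was 628 at a minimum of 100 counts, 9 at 1000, 333 with at least 10 counts in exactly 2 samples, 382 with at least 1 CPM in exactly 2, 296 for exactly 3 samples, and 185 to 224 with a sample left out. The genes called (10) numbered 24 with filterByExpr, under which no member was tested, 239 with DESeq2, 357 with DESeq2 without Cook's cutoff, 22 with limma voom, 6 with a replicate block and 8 to 11 with a sample left out. Members called (0) numbered 54 with DESeq2, 80 without Cook's cutoff, 1 with the replicate block (Igkv14-126, edgeR adjusted p 0.0295) and 0 in each fit with a sample left out. Samples of the same number did not deviate together (correlations -0.00362 to 0.0300, and 1 of 6 numbers correlated best with itself), so the numbers were not taken as pairs. The Pon2 difference was -2.72 to -1.78 with a sample left out. In the edgeR fit over all genes it was -2.14 (adjusted p 0.537) without and -2.32 (adjusted p 1.0) with the replicate block, and DESeq2 gave -2.12 (adjusted p 0.00294 by default, 0.00188 without Cook's cutoff). The cause was not tested. In the shallowest sample, levels up to 0.231 CPM can go without a count.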
